A study of Mus musculus with 4 samples.

Results

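The genes described here encode the integrins, among them those of leukocytes, platelets and epithelia, and other cell surface receptors for matrix. They were taken by name from the deposited count table: every gene whose name starts with Itga or Itgb, leaving out names that end in bp and a digit, and in addition the syndecans Sdc1, Sdc2, Sdc3 and Sdc4, the collagen receptor kinases Ddr1 and Ddr2, the hyaluronan receptor Cd44 and the dystroglycan gene Dag1. This gave 37 genes of 55228, of which 29 carry an integrin name. The rule also takes in Itgbl1, whose secreted product resembles an integrin beta subunit, and Itgb3bp, which encodes a nuclear protein of the centromere and is no receptor.

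The cells were taken from the rib cartilage of C57BL/6 embryos at E17.5. Of the 4 libraries, 2 were from wild-type (WT) embryos and 2 from embryos labelled Trim28 KO. TRIM28 is a corepressor that is brought to DNA by zinc finger proteins. The labels say neither how and in which cells Trim28 was knocked out nor whether 2 libraries of one genotype stem from different embryos. The p-values therefore reflect only how these libraries varied, which may be technical. Totals ran from 18616896 to 20082123 counts. Trim28 stood at 225 and 186 CPM in WT and 51.1 and 54.5 CPM in Trim28 KO (CPM, the count scaled to a common library size with trimmed mean factors, TMM), a log2 fold change of -1.96 ± 0.20 (± SE, 2 libraries each), lower in both Trim28 KO libraries than in either WT library, with part of its transcript still counted. Of 9 chondrocyte markers, 8 were not called and 1, Cnmd, was lower. Their summed level was 112285 and 83667 CPM in WT and 82094 and 104233 CPM in Trim28 KO. Col2a1 made up most of it, at 79631 and 55512 CPM in WT and 58700 and 74388 CPM in Trim28 KO. Every comparison below asks which of these receptors differ in transcript level between Trim28 KO and WT. A gene was called, and is said to have risen or fallen, at an adjusted p under 0.05 by edgeR's quasi-likelihood test over all 16639 genes tested.

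An integrin is an alpha and a beta subunit, each crossing the membrane, with the matrix bound outside and the actin cytoskeleton held inside through talin and kindlin. The alpha subunit largely sets the ligand: Itga1, Itga2, Itga10 and Itga11 encode the collagen-binding subunits, Itga3, Itga6 and Itga7 the laminin-binding ones, and Itga5, Itga8, Itgav and Itga2b those that read the short RGD motif of fibronectin, vitronectin and osteopontin. In cartilage the product of Itga10 is the best known collagen-binding subunit of chondrocytes, and the loss of Itgb1, the partner of most alpha subunits, disturbs the columns of the growth plate. Syndecans carry heparan sulfate chains that bind matrix proteins and growth factors.

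Of the 37 genes, 36 had at least 1 read and 32 had enough reads to be tested. Among the 32, 6 rose and 9 fell, together 46.9%, where 17.4% of all tested genes were called (8.64% higher and 8.77% lower). The 6 that rose were Itga8, Sdc3, Ddr1, Sdc4, Itga5 and Sdc1. Those that fell were Itgbl1, Itgb3, Itga2, Itga4, Itgb4, Sdc2, Itga10, Itga11 and Cd44. Of the 15, 7 differed by at least 2-fold in the fitted value. The genotypes did not overlap in 25 of the 32 genes, or 78.1%, where 58.0% of all tested genes did not overlap. Of the 24 integrin-named genes tested, 2 rose and 7 fell, and of the 8 other receptors 4 rose and 2 fell.

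**Figure D1:**
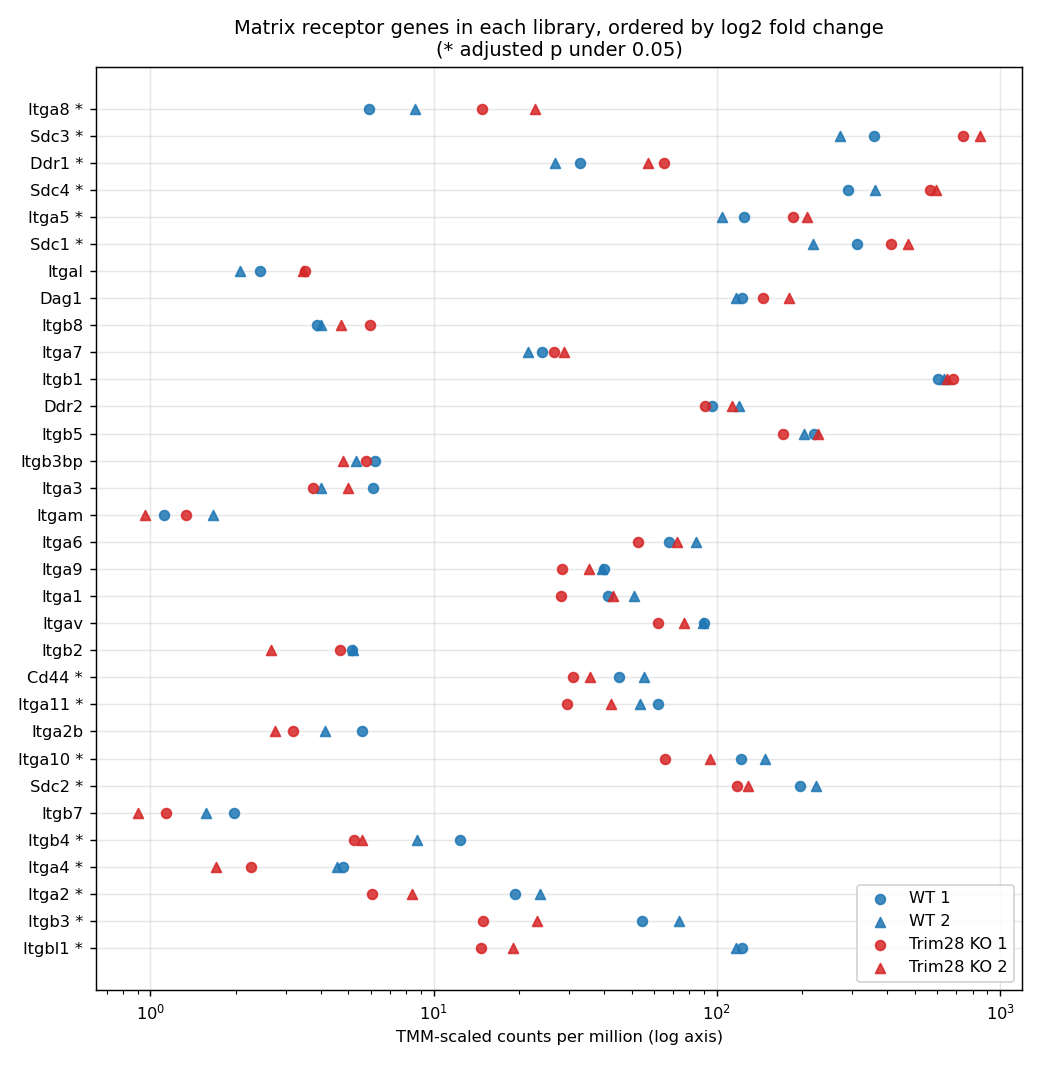
TMM-scaled CPM (log axis) of the 32 tested genes in each library, 2 WT (blue) and 2 Trim28 KO (red), with replicate 1 as a circle and replicate 2 as a triangle; an asterisk marks an adjusted p under 0.05. The red points of Itgbl1, at 14.7 and 19.1, lie far to the left of the blue ones at 123 and 116, while those of Itgb1 stand beside each other between 603 and 680.4.

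Levels of different genes were compared per length, as RPKM, which is CPM per kilobase of exon. The lengths cover all annotated isoforms and are longest for Itga1 and Itga4, at 18599 and 13978 bases. A gene with long exons that these cells rarely use would be understated. Which exons were used was not examined. In WT the most abundant of the 37 was Itgb1 at a mean of 151 RPKM, followed by Sdc4 at 128 RPKM, with no overlap between them in the WT libraries. Sdc1 (69.8 RPKM), Sdc2 (59.7), Itgb5 (59.4) and Sdc3 (52.8) came next, and each overlapped its neighbour in this order. Itgbl1 (28.3 RPKM), Itga10 (26.0) and Itga5 (23.1) formed a further group in which neighbours overlapped. Itga10 shares exon bases with another gene, and over its unshared bases alone its WT mean was 39.1 RPKM, above that of Itgbl1. In Trim28 KO the order at the top was different: Sdc4 came first at a mean of 227 RPKM, then Itgb1 at 163, Sdc3 at 133 and Sdc1 at 116, and of these neighbours only Sdc3 and Sdc1 overlapped in the Trim28 KO libraries. Itga5 stood 6th at 39.8 RPKM and Itgbl1 17th, having been 7th in WT. This order is a description of mean levels in 2 libraries a genotype.

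The fall of Itgbl1 exceeded that of every other tested gene of the 37. The gene lies at chr14:123659971-123975618 (plus strand) of GRCm38, the build of every position given here. It stood at 123 and 116 CPM in WT and 14.7 and 19.1 CPM in Trim28 KO, and the ranges of the genotypes were far apart. It fell 7.07-fold (log2 fold change of -2.82 ± 0.21, adjusted p = 1.13e-09). Without each library in turn its log2 fold change ran from -3.02 to -2.64, and it was called in all 4 cases. Markers of osteoblasts, 6 of 7 of them lower in Trim28 KO, summed to 38432 and 22198 CPM in WT and 8477 and 12263 CPM in Trim28 KO. Col1a1 made up most of that sum, at 37380 and 21087 CPM in WT and 8258 and 11921 CPM in Trim28 KO. Markers of tendon and fibroblasts, 6 of 7 lower, summed to 13625 and 12764 CPM in WT and 5299 and 6543 CPM in Trim28 KO. Their part in the values of Itgbl1 was not tested. In bulk samples, fewer cells of a type and less RNA per cell cannot be told apart.

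Of the 4 collagen-binding alpha subunits, 3 fell. Itga2, at chr13:114833081-114932100 (minus strand), stood at 19.4 and 23.6 CPM in WT and 6.08 and 8.38 CPM in Trim28 KO and fell 2.98-fold (-1.57 ± 0.22, adjusted p = 1.64e-05). Its lowest WT library lay above both Trim28 KO libraries, and the call was kept with any 1 library left out. Itga10, at chr3:96645584-96664519 (plus strand), stood at 122 and 148 CPM in WT and 65.4 and 94.7 CPM in Trim28 KO and fell by less (-0.75 ± 0.21, adjusted p = 0.0154). Its call was lost without WT 2 (adjusted p = 0.0603) and without Trim28 KO 1 (adjusted p = 0.275, log2 fold change of -0.50).

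Itga11, the collagen receptor of fibroblasts and perichondrium, stood at 62.0 and 53.5 CPM in WT and 29.6 and 42.2 CPM in Trim28 KO. Its log2 fold change was -0.69 ± 0.20 (adjusted p = 0.0185). The call was lost without WT 1 (adjusted p = 0.0633) and without Trim28 KO 1 (adjusted p = 0.322, log2 fold change of -0.45). Itga1 was not called (-0.37 ± 0.21, adjusted p = 0.247), and its libraries overlapped, at 41.2 and 50.8 CPM in WT and 28.2 and 43.0 CPM in Trim28 KO. Itga1 and Itga2 lie next to each other on chromosome 13, 20996 bases apart and on the same strand. The difference between their changes was not tested.

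Of the exon bases of Itga10, 33.5% are shared with Gm42957 on the same strand, and reads there were not given to either gene. Gm42957 had 11 to 37 counts a library and was not called. Together, the 4 collagen-binding subunits made up 43.2% and 47.3% of the summed RPKM of the 18 alpha subunits in WT, and 25.6% and 29.8% in Trim28 KO. With the length of Itga10 taken over its unshared bases these shares were 49.6% and 54.2% in WT and 31.0% and 35.6% in Trim28 KO. The median log2 fold change of the 4 was -0.72, beside -0.02 over all genes tested. The tendon and fibroblast markers given above were lower in the same libraries (6 of 7, with a median of -1.04), and their part in the values of Itga11 and the other collagen-binding subunits was not tested.

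Among the alpha subunits that bind RGD, Itga5 and Itga8 rose and the other 2 were not called. Itga5, the fibronectin receptor subunit, at chr15:103344286-103366763 (minus strand), stood at 124 and 104 CPM in WT and 185 and 208 CPM in Trim28 KO. It rose 1.72-fold (0.78 ± 0.20, adjusted p = 0.00761), and was not called without Trim28 KO 2 (adjusted p = 0.074). The highest WT library lay below both Trim28 KO libraries.

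The share of Itga5 in the summed RPKM of the alpha subunits was 26.9% and 22.2% in WT and 46.3% and 41.8% in Trim28 KO. That of Itga10 was 25.0% and 30.0% in WT and 15.6% and 18.1% in Trim28 KO. The order of the pair in WT depended on the length used. Over its full length Itga10 stood below Itga5 in WT 1 (23.4 against 25.2 RPKM) and above it in WT 2. Over the bases that it does not share with Gm42957, a length chosen after seeing the data, it stood at 35.2 and 42.9 RPKM in WT, above Itga5 in both libraries, and at 19.0 and 27.5 RPKM in Trim28 KO, below Itga5 in both. In Trim28 KO Itga5 was the most abundant alpha subunit with either length. The summed RPKM of all 18 alpha subunits was 93.6 and 95.1 in WT and 81.2 and 100.7 in Trim28 KO, ranges that overlap.

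**Figure D2:**
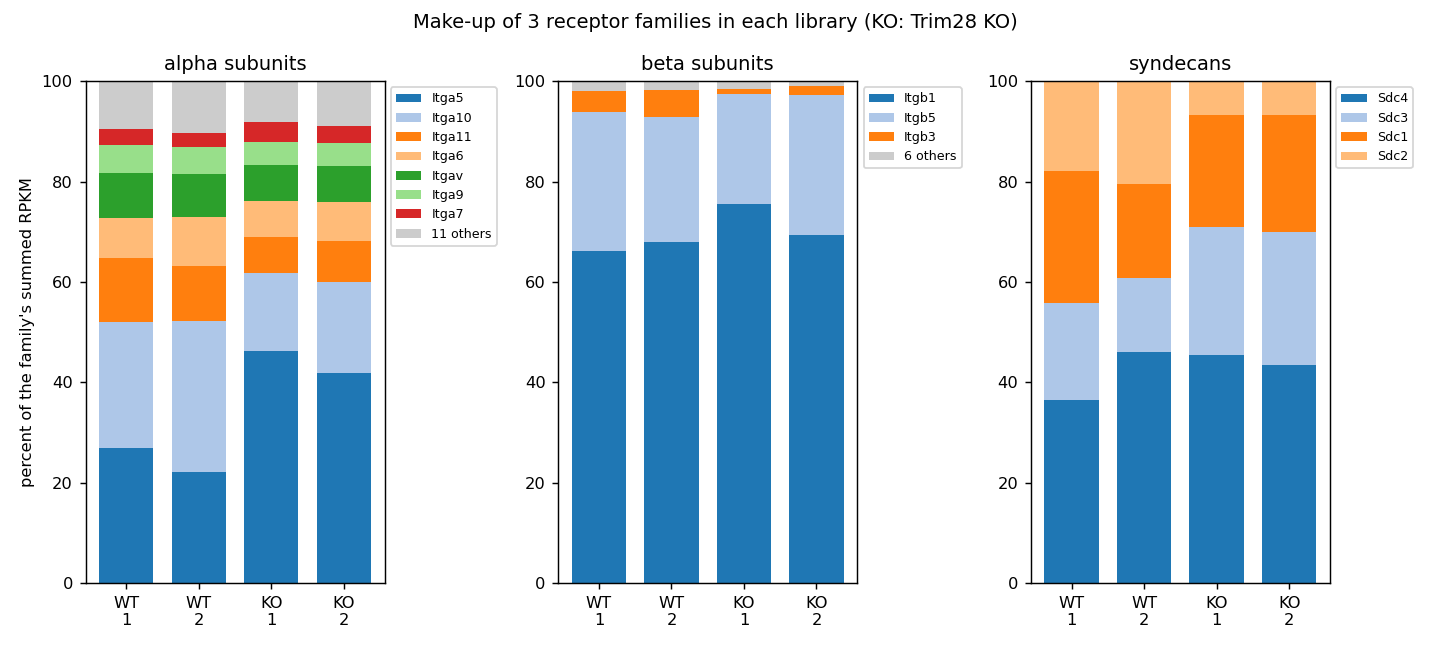
Stacked bars give each gene's percentage of the summed RPKM of the 18 alpha subunits, the 9 beta subunits and the 4 syndecans in each library, with genes that stay under 4% in every library pooled as others. Itga5 takes 26.9% and 22.2% of the alpha subunits in WT and 46.3% and 41.8% in Trim28 KO, and Sdc2 takes 17.9% and 20.6% of the syndecans in WT and 6.85% and 6.79% in Trim28 KO.

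Itga8, a subunit that binds nephronectin and marks smooth muscle and some mesenchyme, was far less abundant. At chr2:12106632-12301922 (minus strand), it stood at 5.89 and 8.59 CPM in WT and 14.8 and 22.8 CPM in Trim28 KO. It rose 2.59-fold (1.38 ± 0.25, adjusted p = 5.09e-04), the largest fitted rise of the 32 with all 4 libraries, and was called without each library in turn. Markers of smooth muscle and pericytes summed to 647 and 580.5 CPM in WT and 661 and 888 CPM in Trim28 KO, with 1 of 6, Cspg4, higher and 2 lower. Cspg4 made up most of that sum, and the other 5 markers summed to 225 and 233 CPM in WT and 161 and 169.6 CPM in Trim28 KO, lower in both Trim28 KO libraries. Their part in the Itga8 values was not tested. Itgav had a log2 fold change of -0.37 ± 0.19 (adjusted p = 0.206) at 90.2 and 89.0 CPM in WT and 62.2 and 76.5 CPM in Trim28 KO. Itga2b, the platelet subunit, had one of -0.71 ± 0.30 (adjusted p = 0.115) at 5.58 and 4.14 CPM in WT and 3.19 and 2.76 CPM in Trim28 KO. Neither was called, although the genotypes did not overlap in either gene. Endothelial markers, whose cells also use Itgav, summed to 408 and 363 CPM in WT and 305 and 346 CPM in Trim28 KO, and none of the 6 was called.

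Itgb3 had the largest fall among the integrin subunits themselves. This beta subunit pairs with the products of Itgav, as on osteoclasts, and of Itga2b, on platelets. At chr11:104608000-104670476 (plus strand), it stood at 54.2 and 73.4 CPM in WT and 14.9 and 23.2 CPM in Trim28 KO and fell 3.35-fold (-1.74 ± 0.23, adjusted p = 2.59e-05). It was called without each library in turn, with log2 fold changes from -2.09 to -1.45.

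Osteoclast markers were lower in the same libraries. All 7 that could be tested fell (Calcr, with 0 to 4 counts, could not), and their summed level was 1020.0 and 848 CPM in WT and 227 and 226 CPM in Trim28 KO. Of the 7 platelet markers only Pf4, which rose, and Gp1ba, not called, had enough reads to test. Gp1bb had 0 counts in all 4 libraries, Gp6 had 0 in both Trim28 KO libraries, and the list summed to 6.96 and 7.98 CPM in WT and 18.8 and 10.5 CPM in Trim28 KO. Without Pf4, which macrophages also make, the other 6 summed to 2.12 and 1.82 CPM in WT and 1.08 and 1.20 CPM in Trim28 KO. The part of either cell type in the Itgb3 values was not tested.

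The 2 most abundant beta subunits, Itgb1 and Itgb5, were not called. Itgb1, at chr8:128685654-128733200 (plus strand), stood at 603 and 633 CPM in WT and 680.4 and 649.8 CPM in Trim28 KO with a log2 fold change of 0.11 ± 0.21 (adjusted p = 0.781). Itgb5, a partner of Itgav, stood at 219.7 and 202 CPM in WT and 170.4 and 228 CPM in Trim28 KO with one of -0.08 ± 0.21 (adjusted p = 0.832). Itgb1 made up 66.2% and 67.9% in WT and 75.6% and 69.3% in Trim28 KO of the summed RPKM of the 9 beta subunits, and Itgb5 27.7% and 24.9% in WT and 21.8% and 27.9% in Trim28 KO. The sum over the 9 was 223 and 228 RPKM in WT and 220.5 and 230 in Trim28 KO.

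Itgb4, the partner of Itga6 in the hemidesmosomes of epithelia and also made by Schwann cells, stood at 12.4 and 8.74 CPM in WT and 5.25 and 5.57 CPM in Trim28 KO and fell (-0.97 ± 0.24, adjusted p = 0.0072). Its call was lost without WT 1 (adjusted p = 0.137), Trim28 KO 1 (adjusted p = 0.0915) or Trim28 KO 2 (adjusted p = 0.0576). Without WT 1 its log2 fold change was -0.67. Of 9 epithelial and mesothelial markers, 3 could be tested, 1 was lower and none higher, and their sum was 6.21 and 6.97 CPM in WT and 2.42 and 3.31 CPM in Trim28 KO. Of 5 Schwann cell markers, 3 were lower and 1 higher, and their sum was 224 and 220.0 CPM in WT and 384 and 303 CPM in Trim28 KO. S100b, the marker that rose, made up most of that sum, at 200 and 182 CPM in WT and 370 and 292 CPM in Trim28 KO. The part of epithelial and Schwann cells in the Itgb4 values was not tested. Itgb8, which binds latent TGF-beta with Itgav, had a log2 fold change of 0.44 ± 0.28 (adjusted p = 0.308) and was not called. Itgb6 had 1 and 2 counts in WT and 11 and 0 in Trim28 KO and was not tested.

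None of the 3 laminin-binding alpha subunits was called. Their log2 fold changes were -0.29 ± 0.20 for Itga6, -0.21 ± 0.29 for Itga3 and 0.28 ± 0.19 for Itga7, the subunit of muscle, with adjusted p-values from 0.339 to 0.686. Itga6 was the most abundant of them at 67.6 and 84.4 CPM in WT and 52.7 and 72.1 CPM in Trim28 KO, and its genotypes overlapped. Skeletal muscle markers varied between the libraries, summing to 617 and 803 CPM in WT and 1163 and 447 CPM in Trim28 KO, and Itga7 stood at 24.1 and 21.5 CPM in WT and 26.6 and 28.9 CPM in Trim28 KO.

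Itga4, whose product pairs with that of Itgb1 or Itgb7 and binds fibronectin and VCAM1, fell 2.35-fold from a low level (-1.23 ± 0.32, adjusted p = 0.00889). At chr2:79255426-79333123 (plus strand), it stood at 4.78 and 4.55 CPM in WT and 2.27 and 1.71 CPM in Trim28 KO, and the genotypes were well apart. Erythroid markers, from a lineage whose precursors carry Itga4, fell in all 5 tested, with sums of 207 and 279 CPM in WT and 60.3 and 66.3 CPM in Trim28 KO, and their part in the Itga4 values was not tested. The Itga4 call was lost without Trim28 KO 2 (adjusted p = 0.104). Itga9, its closest relative and a receptor for tenascin, had a log2 fold change of -0.31 ± 0.19 at 40.0 and 39.2 CPM in WT and 28.5 and 35.3 CPM in Trim28 KO and was not called (adjusted p = 0.279). Vcam1, a cell surface ligand of Itga4 integrins, also fell (-1.19 ± 0.22, adjusted p = 4.42e-04), from 16.5 and 18.5 CPM in WT to 8.91 and 6.42 CPM in Trim28 KO.

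The 8 leukocyte integrin genes were all low, and none of the 4 that could be tested was called. Itgb2, the shared beta subunit of leukocytes, stood at 5.15 and 5.20 CPM in WT and 4.69 and 2.66 CPM in Trim28 KO (-0.50 ± 0.30), and Itgal at 2.44 and 2.07 CPM in WT and 3.50 and 3.46 CPM in Trim28 KO (0.63 ± 0.33). Itgb7 (-0.79 ± 0.42) and Itgam (-0.28 ± 0.44) stood below 2 CPM in every library. Adjusted p-values of the 4 ran from 0.204 to 0.719. Itgax had 2 to 9 counts a library, Itgae 3 to 5, and Itgb2l 1 count in WT 2 and 0 in the other 3. Itgad had 0 counts in all 4 libraries, which allows up to 0.151 to 0.159 CPM in a library (3 counts, counting error only). Macrophage markers in the same libraries were higher in Trim28 KO (5 of 9 rose, none fell), with sums of 132 and 136 CPM in WT and 429 and 256 CPM in Trim28 KO. Of the neutrophil markers, 2 of 5 tested were lower, with sums of 3.29 and 24.5 CPM in WT and 1.44 and 0.853 CPM in Trim28 KO, and Ltf had 0 counts in both Trim28 KO libraries. Lymphocyte markers summed to 1.06 and 2.78 CPM in WT and 2.47 and 1.46 CPM in Trim28 KO. Of the 3 tested, 1, Cd4, rose, from 4 and 5 counts in WT to 16 and 15 in Trim28 KO (adjusted p = 0.0494). Cd8a had 0 counts in all 4 libraries. Mast cell markers summed to 8.87 and 10.9 CPM in WT and 9.37 and 6.37 CPM in Trim28 KO, and none of the 5 tested was called. The part of these cells in the leukocyte integrins was not tested. Of Itgam, 68.7% of the exon bases are shared with Gm49368, and reads there were given to neither gene.

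**Figure D3:**
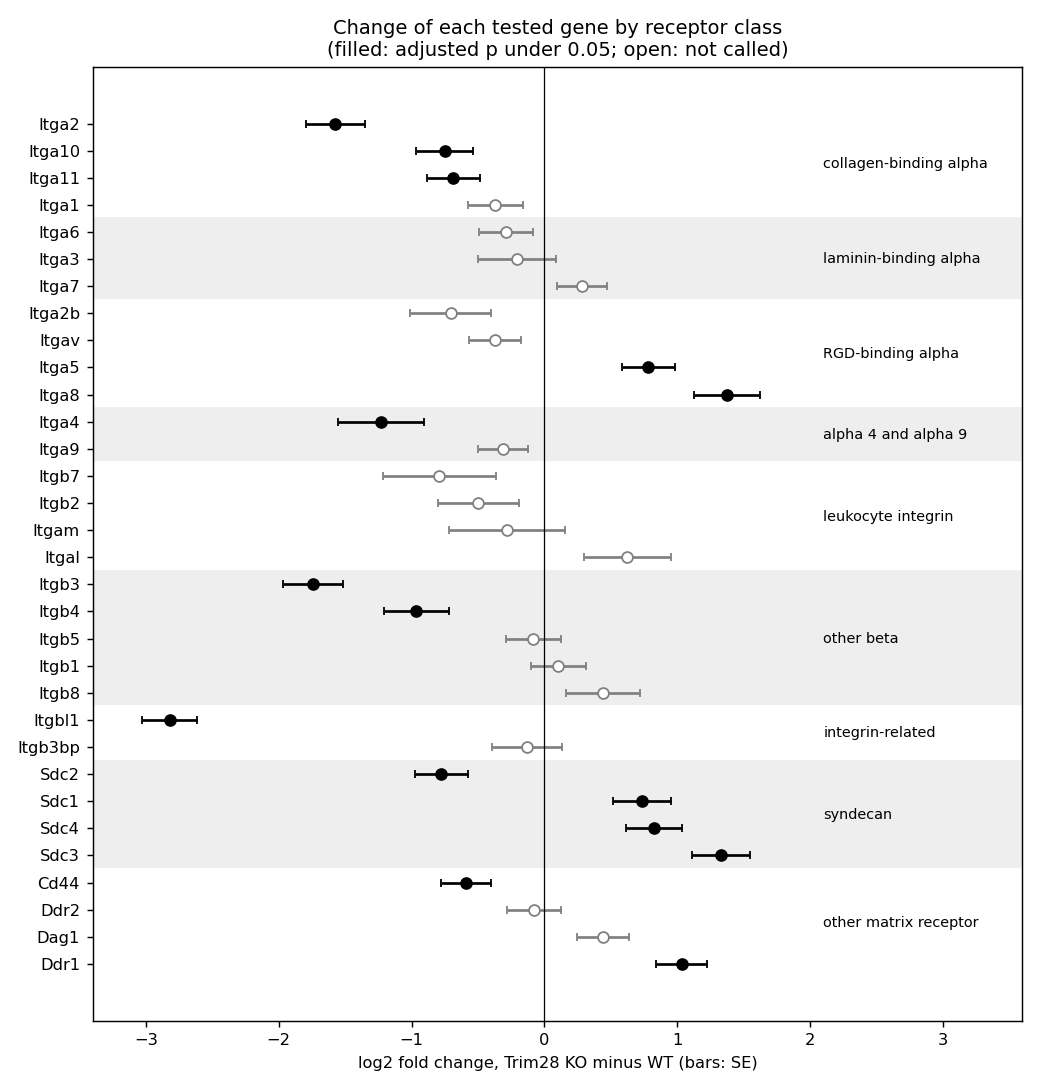
Log2 fold change (Trim28 KO minus WT) with its SE for the 32 tested genes, grouped by receptor class; filled points have an adjusted p under 0.05. The points of the 4 collagen-binding alpha subunits all lie to the left of 0, from -1.57 to -0.37, and 3 of the 4 syndecans lie to the right, from 0.73 to 1.33.

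All 4 syndecans were called, 3 higher and 1 lower. Sdc3, the large syndecan of developing cartilage and nerve, at chr4:130792537-130826319 (plus strand), stood at 359.9 and 273 CPM in WT and 742 and 851 CPM in Trim28 KO. It rose 2.52-fold (1.33 ± 0.22, adjusted p = 1.27e-04), and was called without each library in turn. Each Trim28 KO library lay above 700 CPM and each WT library below 400.

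Sdc4, a syndecan of focal adhesions, at chr2:164424247-164443887 (minus strand), stood at 291 and 362 CPM in WT and 564 and 594 CPM in Trim28 KO and rose (0.83 ± 0.21, adjusted p = 0.00764). Its call was lost without WT 1 (adjusted p = 0.060) and without Trim28 KO 2 (adjusted p = 0.0504). Sdc1, at chr12:8771323-8793715 (plus strand), stood at 313 and 219 CPM in WT and 412 and 473 CPM in Trim28 KO and rose (0.73 ± 0.22, adjusted p = 0.0208). The WT libraries of Sdc1 stood well apart from each other, and the call was lost without WT 2 (adjusted p = 0.201), Trim28 KO 1 (adjusted p = 0.0655) or Trim28 KO 2 (adjusted p = 0.148).

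Sdc2, the syndecan of mesenchymal cells, at chr15:32920723-33034935 (plus strand), moved the other way. It stood at 197 and 224 CPM in WT and 118 and 128 CPM in Trim28 KO and fell (-0.78 ± 0.20, adjusted p = 0.00773), and was not called without Trim28 KO 1 (adjusted p = 0.104). Per length, Sdc2 stood at 55.9 and 63.5 RPKM in WT and 33.3 and 36.4 RPKM in Trim28 KO and Sdc3 at 60.1 and 45.5 RPKM in WT and 124 and 142 RPKM in Trim28 KO. The summed RPKM of the 4 syndecans was 313 and 309 in WT and 487 and 536 in Trim28 KO, with no overlap. The share of Sdc3 in that sum was 19.2% and 14.8% in WT and 25.4% and 26.5% in Trim28 KO, that of Sdc2 17.9% and 20.6% in WT and 6.85% and 6.79% in Trim28 KO, and that of Sdc4 36.6% and 46.1% in WT and 45.5% and 43.5% in Trim28 KO.

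Promoter windows from RefSeq (GRCm38.p6) were matched by symbol to 28 of the 37 genes. The table gave none for Itgb3, Itgb4, Sdc2, Itgb2, Itga6, Itga7, Itgal, Itgad and Itgae. Where RefSeq listed several windows, the first was used: Ddr1 had 4, and Dag1, Itga3 and Itgb6 had 2 each. By GENCODE, the windows of Sdc4, Itga9, Itgb3bp, Ddr2 and Itgb8 lie inside the gene, and others partly so. That of Itga9 begins at 118711442, and the gene at 118606690. The counts below therefore mix stretches before a gene with stretches inside it. A GC box is GGGCGG or its reverse complement CCGCCC. It lay in the 250 bases before the RefSeq start of 5 of the 6 genes that rose. The same held for 2 of the 6 with a window that fell and 5 of the 13 not called, beside 32.9% of 27025 promoters. CpG dinucleotides in the same bases numbered 7 to 32 (median 14.5) in the genes that rose, 2 to 12 (median 5.5) in those that fell and 1 to 22 (median 12) in those not called, with a median of 6 over all promoters. With so few genes no difference between these sets was tested. The stretches of 4 genes that rose and 3 that fell, chosen as examples with and without the box after the matches were seen, are given 5′ to 3′ with GC boxes in capitals. Parts that lie in a GENCODE exon are left out, which takes 1 of the 3 GC boxes of Sdc1 away. A match of letters is a description, not a binding site.
Sdc3 (rose; chr4:130792287-130792536, plus strand): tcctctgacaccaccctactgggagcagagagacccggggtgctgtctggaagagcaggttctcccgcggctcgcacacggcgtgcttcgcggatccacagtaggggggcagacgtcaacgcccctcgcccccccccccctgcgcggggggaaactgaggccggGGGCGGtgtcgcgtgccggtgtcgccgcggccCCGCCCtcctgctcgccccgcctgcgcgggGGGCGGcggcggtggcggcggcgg
Sdc4 (rose; chr2:164443189-164443438, minus strand): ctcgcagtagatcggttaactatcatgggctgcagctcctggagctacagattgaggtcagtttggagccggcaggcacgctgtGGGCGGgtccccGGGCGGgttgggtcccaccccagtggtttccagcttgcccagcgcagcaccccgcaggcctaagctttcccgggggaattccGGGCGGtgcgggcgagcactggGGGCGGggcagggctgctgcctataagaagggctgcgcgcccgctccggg
Sdc1 (rose; chr12:8771182-8771322, plus strand): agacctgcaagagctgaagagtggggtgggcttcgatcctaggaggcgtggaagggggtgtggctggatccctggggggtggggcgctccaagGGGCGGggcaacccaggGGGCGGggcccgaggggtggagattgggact
Itga5 (rose; chr15:103366792-103367041, minus strand): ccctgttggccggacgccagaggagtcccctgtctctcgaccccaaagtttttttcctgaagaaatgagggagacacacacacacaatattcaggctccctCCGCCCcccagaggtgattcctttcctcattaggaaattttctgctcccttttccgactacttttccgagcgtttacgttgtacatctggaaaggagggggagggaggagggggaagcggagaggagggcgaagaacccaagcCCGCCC
Itga4 (fell; chr2:79255176-79255425, plus strand): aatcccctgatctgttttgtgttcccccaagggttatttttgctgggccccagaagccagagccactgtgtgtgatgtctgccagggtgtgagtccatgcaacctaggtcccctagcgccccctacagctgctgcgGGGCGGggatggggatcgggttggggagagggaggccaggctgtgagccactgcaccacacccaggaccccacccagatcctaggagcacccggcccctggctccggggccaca
Itga2 (fell; chr13:114932101-114932350, minus strand): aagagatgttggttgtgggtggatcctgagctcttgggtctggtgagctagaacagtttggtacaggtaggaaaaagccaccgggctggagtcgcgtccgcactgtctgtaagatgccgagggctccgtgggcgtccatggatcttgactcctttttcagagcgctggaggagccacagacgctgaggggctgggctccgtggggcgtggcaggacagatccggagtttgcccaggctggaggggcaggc
Itga10 (fell; chr3:96645367-96645583, plus strand): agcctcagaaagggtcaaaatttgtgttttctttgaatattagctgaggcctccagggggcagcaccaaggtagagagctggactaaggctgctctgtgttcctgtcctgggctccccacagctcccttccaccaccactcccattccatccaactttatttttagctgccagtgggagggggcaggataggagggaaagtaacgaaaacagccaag

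Sdc4 holds 4 GC boxes in this stretch, Sdc3 3, Itga5 2 and Itga4 1, and the stretches of Itga2 and Itga10 hold none. Of the genes not printed, Itga8, which rose, holds none in its window, Itgbl1, which fell, 1, and Ddr1, which rose, 1. CpG counts did not separate these examples, with 12 in the window of Itga2, 10 in that of Sdc1 and 11 in that of Itga5. Other motifs were searched on both strands. The RUNX core TGTGGT lay in the window of 1 of the 28 genes, Itga4 (14.2% of all promoters). The AP-1 site TGANTCA lay in that of 1, Itgax (6.87%). The SOX core ACAANG lay in the windows of 10 (36.6%), and the GLI site GACCACCCA in those of 0 (0.211%). No matches of different motifs overlapped in these genes. No match says only that these letters are not in the window.

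Of the other matrix receptors, Ddr1 rose, Cd44 fell and Ddr2 and Dag1 were not called. Ddr1 and Ddr2 encode receptor tyrosine kinases that collagen activates. Ddr1, at chr17:35681567-35704621 (minus strand), stood at 32.9 and 26.9 CPM in WT and 65.2 and 57.2 CPM in Trim28 KO, rose 2.05-fold (1.03 ± 0.19, adjusted p = 4.27e-04) and was called without each library in turn. Ddr2, the form of mesenchymal and cartilage cells, stood at 95.7 and 119.6 CPM in WT and 91.1 and 113 CPM in Trim28 KO, with overlapping genotypes (-0.08 ± 0.20, adjusted p = 0.842). Of the summed RPKM of both kinases, Ddr1 took 40.0% and 30.4% in WT and 58.1% and 49.5% in Trim28 KO.

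Cd44, a receptor for hyaluronan, stood at 45.2 and 55.3 CPM in WT and 31.2 and 35.5 CPM in Trim28 KO and fell (-0.59 ± 0.19, adjusted p = 0.0322). Among the 15 called genes it had the largest adjusted p, and the call was lost without WT 2 (adjusted p = 0.216), Trim28 KO 1 (adjusted p = 0.273) or Trim28 KO 2 (adjusted p = 0.0955), by DESeq2 and with library size alone. Cd44 is also made by osteoclasts, whose markers were lower as given above, and by macrophages, whose markers were higher. The part of either cell type in the Cd44 values was not tested. Dag1, which encodes the laminin receptor dystroglycan, stood at 122 and 117 CPM in WT and 146 and 179 CPM in Trim28 KO, without overlap, and was not called (0.44 ± 0.20, adjusted p = 0.132). Itgb3bp was not called either (-0.13 ± 0.26, adjusted p = 0.791).

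**Figure D4:**
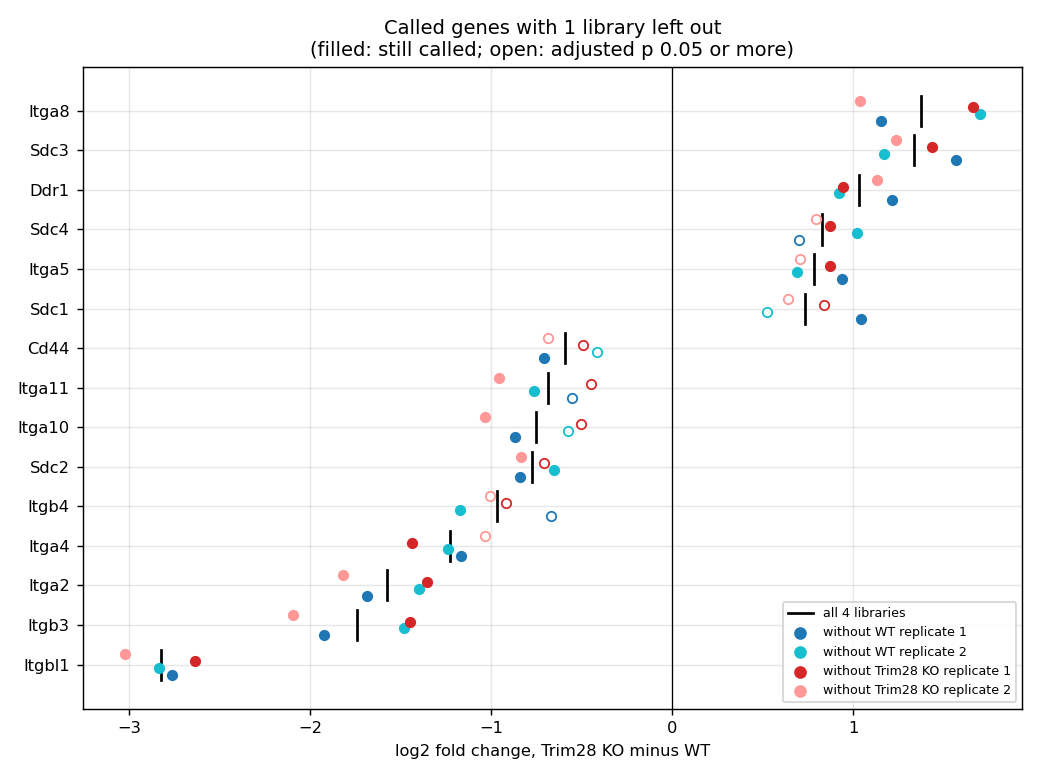
Log2 fold change of the 15 called genes with all 4 libraries (black line) and with each library left out (coloured points, filled where the gene was still called). Itgbl1, Itgb3, Itga2, Itga8, Sdc3 and Ddr1 keep 4 filled points, and no point lies on the other side of 0 from its line.

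Leaving out a library changed how many of the 15 were called. Without WT 1 or without WT 2, 12 of the 15 remained, and without Trim28 KO 1 or without Trim28 KO 2, 9 remained, all in the same direction. The share of all tested genes called went from 17.4% to 15.3% and 15.6% without WT 1 and WT 2, and to 7.29% and 9.78% without Trim28 KO 1 and Trim28 KO 2. Against a minimum change of 2-fold, 2 of the 15 were called, Itgbl1 and Itgb3, beside 2.34% of all tested genes.

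The partners of these receptors were taken from lists of known ligands, adaptors and binding proteins. Over all 6 lists 101 genes were tested and 29, or 28.7%, were called, beside 17.4% of all tested genes. Of 33 adaptor and focal adhesion genes, 31 were tested, of which 4 rose and 2 fell (19.4%, near the 17.4% of all tested genes), with a median log2 fold change of 0.08. Those that rose were Parvg, the parvin of blood cells (1.68 ± 0.37, at 1.06 and 1.31 CPM in WT and 4.53 and 3.11 CPM in Trim28 KO), Cd151, a tetraspanin that binds laminin-binding integrins (0.74 ± 0.19), Actn4, an alpha-actinin (0.74 ± 0.21), and Itgb1bp1, which binds the Itgb1 tail (0.54 ± 0.19, adjusted p = 0.0495). Those that fell were Tln2, the less common talin (-0.75 ± 0.19), and Kank1 (-0.64 ± 0.21). The macrophage markers given above were higher in the libraries in which Parvg was, and their part in it was not tested.

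Of 35 matrix ligands, all were tested, 8 fell and 2 rose (28.6%), with a median of -0.25. The falls with the smallest p-values were in Ibsp (-2.19), Spp1 (-1.28) and Mepe (-1.89 ± 0.39), bone matrix proteins with an RGD motif, and in Col1a1 (-1.53) and Postn (-1.15). Osteoblast markers, which include Ibsp, Col1a1 and Dmp1 of this list, were lower as given above. Tendon and fibroblast markers, also lower, share genes with this list too, among them Postn. The ligands and these markers are therefore not separate observations.

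Of 7 ligands on cell surfaces, 5 were tested, 3 rose and 1, Vcam1, fell, with a median of 0.58. The rises were in Jam2 (0.87 ± 0.19), Adam15, which carries a disintegrin domain (0.75 ± 0.20), and Icam1, the ligand of leukocyte integrins (0.58 ± 0.19). Among 7 genes of TGF-beta and its latent binding proteins, Tgfb3 (0.77 ± 0.20) and Ltbp1 (0.59 ± 0.20) rose and Tgfb1 fell (-0.69 ± 0.22), while Itgav and Itgb8, which bind the latent form, were not called. The median of the 7 was -0.04.

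Of 16 genes that bind or glycosylate dystroglycan, 15 were tested, 4 rose and none fell (26.7%), with a median of 0.16. Among those that rose were Dtna, a dystrobrevin (1.69 ± 0.31), at 1.59 and 2.88 CPM in WT and 7.78 and 6.72 CPM in Trim28 KO, and the sarcoglycan Sgca (1.49 ± 0.29). Of the 8 skeletal muscle markers, 6 were highest in Trim28 KO 1 and 6 lay within the WT range in Trim28 KO 2. Tnnt3 alone was called, lower, and the other 7 summed to 222 and 438 CPM in WT and 915 and 290.0 CPM in Trim28 KO. Their part in these partner genes was not tested. Sgca stood at 2.07 and 2.63 CPM in WT and 6.44 and 6.82 CPM in Trim28 KO, and the Trim28 KO libraries differed little. Of 8 genes that make, cut or bind hyaluronan or link Cd44 to actin, Has1, a hyaluronan synthase, fell (-1.02 ± 0.29), Msn, which encodes moesin, rose (0.64 ± 0.20), and the other 6 were not called. Their median was -0.04.

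Of the 29 partner genes called, 11 were called without each library in turn, among them Ibsp, Spp1, Mepe, Postn, Vcam1, Jam2, Dtna and Sgca. Without WT 1 the calls lost included Has1, Itgb1bp1, Ltbp1, Msn and Tgfb1, with adjusted p-values from 0.0786 for Ltbp1 to 0.371 for Tgfb1. Without WT 2 they included Actn4, Adam15, Icam1, Itgb1bp1 and Kank1, from 0.0529 for Itgb1bp1 to 0.189 for Kank1. Without Trim28 KO 1 they included Actn4, Adam15, Cd151, Col1a1, Has1, Icam1, Itgb1bp1, Kank1, Msn, Parvg, Tgfb1 and Tln2, from 0.0507 for Col1a1 to 0.380 for Itgb1bp1. Without Trim28 KO 2 they included Actn4, Adam15, Has1, Icam1, Itgb1bp1, Ltbp1, Msn, Tgfb1 and Tgfb3, from 0.0618 for Itgb1bp1 to 0.363 for Ltbp1.

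**Figure D5:**
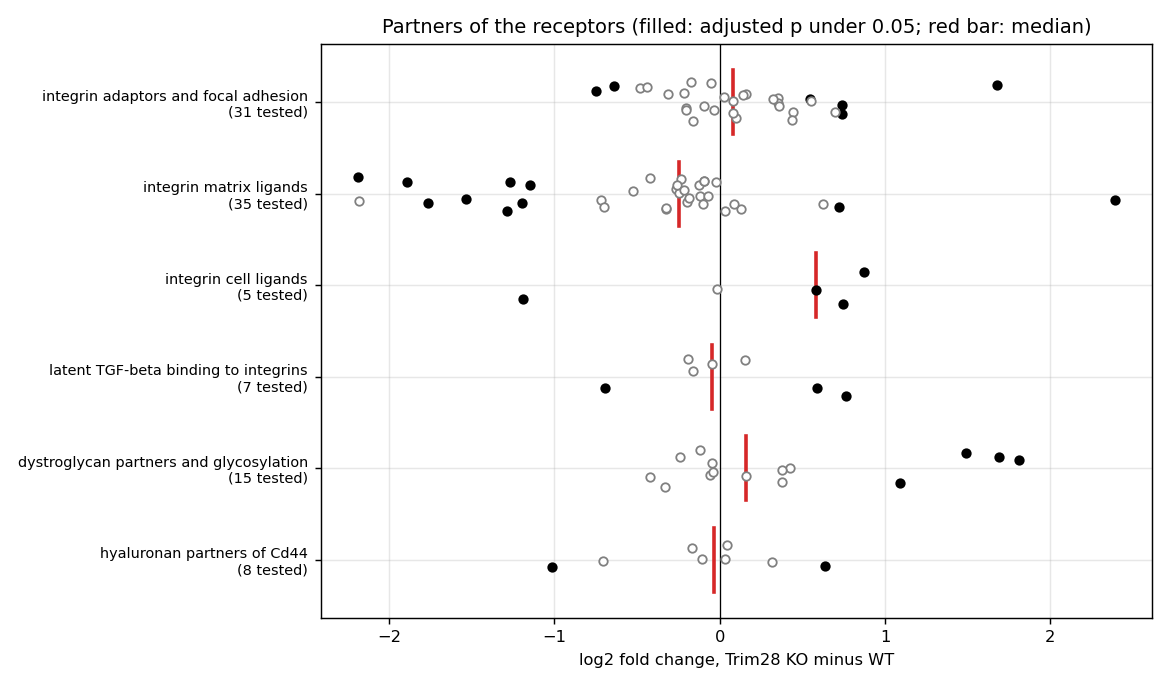
Log2 fold change (Trim28 KO minus WT) of the tested genes in 6 lists of receptor partners, filled where the adjusted p was under 0.05, with the median of each list as a red bar; points are spread vertically only for legibility. The list of matrix ligands has its lowest point at -2.19 and a median of -0.25, and the list of adaptors has a median of 0.08.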

How the data were processed

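Bulk RNA-seq covered 4 libraries of rib cartilage cells, 2 WT and 2 Trim28 KO. The values the authors deposited are raw counts. Per the file headers, featureCounts 1.6.4 assigned paired-end fragments to the exons of GENCODE M23 (mm10) and added them up by gene name, without options for strand, multi-mapping reads or overlapping genes. No aligner is given in the sources used here. Reads from shared exons of either strand, or that map to several places, were therefore given to no gene, and without strand the reads of antisense genes cannot be separated. Subread 1.6.4 and edgeR are also named, per the submitters' processing notes.

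Genes were kept by edgeR's filterByExpr at its defaults. TMM (trimmed mean of M-values) factors scaled the counts. Genotypes were compared in R 4.3.3 with limma 3.58.1 and edgeR 4.0.16, by edgeR's quasi-likelihood test without covariates and with robust estimates, and Benjamini-Hochberg adjustment over the 16639 genes tested. The SE is the log2 fold change divided by the square root of F. RPKM used the deposited exon lengths. Positions came from GENCODE M21 on GRCm38, the assembly of mm10. Replicates were not copies of one library: chi-square over its degrees of freedom was 30.6 between the WT libraries and 24.6 between those of Trim28 KO. The steps were tested on simulated counts, where false calls exceeded their nominal share when each gene kept its own dispersion.

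The genes described and all lists were chosen with earlier results of these data known. Every gene taken by the rule is named, and of each list of partners at most 6 called genes with the smallest p-values. A few partner genes are counted in their lists but not reported here by name. The alternatives were no filter, library size alone, upper-quartile or relative log expression (RLE) factors, a filter of 5 CPM in 2 libraries, DESeq2 1.42.0, limma-voom, glmTreat against a log2 change of 1, a replicate block and leaving out each library. A crossed replicate block and a length of Itga10 without shared exon bases were added after seeing the data.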

Additional observations from a re-analysis of the deposited data

How the results depend on the processing

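Of the 15 genes called, 15 were called with RLE factors, upper-quartile factors, no filter, limma-voom and the replicate block, and 14 with library size alone and by DESeq2 (both without Cd44) and with the stricter filter (which left Itga4 untested). Against a log2 change of 1, 2 of the 15, 2 of the 101 partner genes tested and 389 genes over the whole table were called. With 1 library left out, 9 to 12 of the 37 genes, 15 to 27 of the partner genes (29 with all 4 libraries) and 1274 to 2694 of all genes (2898 with all 4) were called. No called gene of the 37, and no called partner gene, changed sign under any of the 14 alternatives. Among genes not called, 5 changed sign when 1 library was left out. The log2 fold change ran from -0.26 to 0.013 for Itgb3bp (0.013 without WT 1, 0.0082 without Trim28 KO 2), from -0.46 to 0.15 for Itga3 (without WT 1), from -0.24 to 0.12 for Ddr2 (0.12 without WT 2, 0.08 without Trim28 KO 1), from -0.54 to 0.07 for Itgam (0.065 without WT 2) and from -0.30 to 0.12 for Itgb5 (without Trim28 KO 1). The cause was not tested. The replicate numbers are shared between genotypes, but the labels do not say that they pair libraries, and the differences between replicates in WT and in Trim28 KO had a correlation of -0.11 over genes. With the replicate block 2921 genes were called in all, and with the crossed replicate block 3340, with 15 of the 37 genes in each. With counts under about 10 a library, as for Itgax, Itgae, Itgb6 and Itgb2l, depth limits what can be seen.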
